A study of Mus musculus with 6 samples.

Results

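The nuclear-encoded subunits of the respiratory chain and of ATP synthase were followed in RNAseq counts of mouse embryonic cells sorted as neural crest cells (NCCs). NCCs are migratory embryonic cells that give rise to facial skeleton, peripheral neurons, glia and the smooth muscle of the great arteries. Markers of another cell type, the macrophage, summed far above neural crest markers in every library, with the values given below. Members were the protein-coding genes of GENCODE M21 whose symbols begin with Nduf and a subunit letter and number, with Uqcr, with Cox4 to Cox8 or with Atp5, or are Sdha, Sdhb, Sdhc or Sdhd. The rule found 84 of the 46983 genes in the table, of which 37 belonged to complex I, 4 to complex II, 8 to complex III, 18 to complex IV and 17 to complex V. Of these, 79 had enough counts to be tested, among 13961 tested genes in all. A second identifier named Atp5o had no row, and 10 further matches of the name are annotated as processed pseudogenes and were left out. The rule reads symbols, so it leaves out subunits named otherwise, such as cytochrome c1 (Cyc1), and keeps Cox7a2l and Atp5s (also called Dmac2l), which are not regarded as standard subunits.

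GFP-positive cells were sorted from E11.25 embryos, with 3 libraries per genotype. Both genotypes carried Wnt1 Cre/+ and the Rosa26 mTmG/+ reporter, which turns on GFP after Cre recombination. Controls were BAF155 flox/+ and BAF170 flox/+, so they too carried a floxed allele of each gene, and deficient embryos were flox/flox at both. BAF155 (Smarcc1) and BAF170 (Smarcc2) are core subunits of the BAF chromatin remodeling complex. Wnt1-Cre is also active in the dorsal neural tube, so the sort is not confined to migrated crest. The cells came from 3 embryos of each genotype, the number of libraries per genotype, and p-values measure the spread between these libraries.

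The respiratory chain passes electrons from NADH and succinate to oxygen and uses the energy to pump protons across the inner mitochondrial membrane. Complex I takes electrons from NADH, complex II (also an enzyme of the TCA cycle) takes them from succinate, complex III passes them to cytochrome c and complex IV passes them to oxygen. Complex V lets the protons flow back and makes ATP. Complexes I, III, IV and V also hold subunits encoded by mitochondrial DNA, whereas complex II is wholly nuclear-encoded.

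Counts per library ran from 8191219 to 11661941 in the controls and from 12633319 to 19808620 in the deficient libraries, so every deficient library was deeper. Levels are given as CPM, the count divided by the TMM-normalized library total and multiplied by 1000000, and adjusted p-values are those of edgeR with Benjamini-Hochberg adjustment over all tested genes. Smarcc1 had 42.0, 54.9 and 35.0 CPM (control replicates 1 to 3) against 29.3, 26.3 and 24.4 CPM (deficient replicates 1 to 3), with a log2 fold change of −0.71 (SE 0.156, adjusted p = 0.0676, edgeR). It missed the threshold of 0.1 in edgeR without control replicate 1 (adjusted p = 0.222), without deficient replicate 2 (0.132) or without deficient replicate 3 (0.226), and with length-corrected offsets the log2 fold change was −0.45. Smarcc2 had 91.6, 89.7 and 92.7 CPM against 85.7, 82.1 and 86.6 CPM, and did not pass (adjusted p = 0.251, edgeR). Counts per gene can still include transcripts that have lost only the floxed exons, and whether they did here was not tested. As a check of the cell type, the 16 genes of a neural crest list summed to between 70.2 and 137 CPM in controls against between 36.4 and 59.1 CPM in deficient libraries, none of them at 0 in all libraries. A list of 12 macrophage markers, from another cell type, summed to between 12095 and 14022 CPM in controls against between 14153 and 15438 CPM in deficient libraries. In every library the macrophage sum was far above the neural crest sum. The median level per tested gene was 824 CPM in the macrophage list and 3.9 CPM in the neural crest list. The subunit values therefore cannot be read as those of NCCs. In bulk libraries fewer cells of a type cannot be told apart from less RNA per cell.

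The respiratory chain subunits differed little between the genotypes. Fold changes are log2 of deficient over control throughout and were fitted by edgeR (quasi-likelihood) on the 13961 genes together. None of the 79 tested subunits was called, where a call needed an adjusted p up to 0.1, a log2 fold change of 0.58 or more in either direction and a mean level of 2 CPM or more, while 4.94% of all tested genes were called. DESeq2 and limma-voom called 0 as well. At an unadjusted p under 0.05 there were 10 subunits, 9 higher and 1 lower, where 27.3% of all tested genes passed. By the adjusted p alone, with no limit on the fold change, 3 subunits passed, namely Uqcrfs1, Ndufs3 and Ndufa11, all higher. That is 3.8% of the subunits, near the 4.18% of all tested genes that passed in this direction. In the other direction no subunit passed, against 7.75% of all tested genes. Among the 5220 tested genes over 20 CPM, where 61 of the 79 subunits lay, 51 were called and 201 were lower at that adjusted p.

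The fits were precise enough to bound most of these differences. In 71 of the 79 subunits the 95% interval of the log2 fold change lay wholly between −0.58 and 0.58, which held for 52.3% of all tested genes. The median log2 fold change of the subunits was 0.10, with quartiles of 0.04 and 0.14, and that of all tested genes was −0.02. Above 0 lay 64 of the 79 values, or 81.0%, and 47.7% of those of all tested genes. The groups did not overlap, with every deficient library higher, in 19 subunits (15.1% of all tested genes). They did not overlap with every deficient library lower in 1, Ndufs8 (16.4% of all tested genes).

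This small upward shift was also that of other genes of high level. Over 20 CPM lay 61 of the subunits and 5220 of the tested genes, and both sets had, as their median, a log2 fold change of 0.10. Values above 0 made up 90.2% of these subunits, with 72.6% in all genes over 20 CPM. Adjusted p of at most 0.1 with a higher level was found in 3 of the 61, where all genes over 20 CPM gave 10.7%. Groups without overlap and higher in the deficient libraries were found in 18 of the 61, with 32.5% in all genes over 20 CPM. In the lower direction such groups were found in 0 of the 61 and in 433 of the 5220 genes. All 61 intervals lay inside 0.58 in either direction, as did 92.8% of those of all genes over 20 CPM. When each library was corrected for its trend with exon length, the median of all tested genes moved up to 0.10 while that of the subunits was 0.10, which left a difference of 0.003 in place of 0.117.

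**Figure D1:**
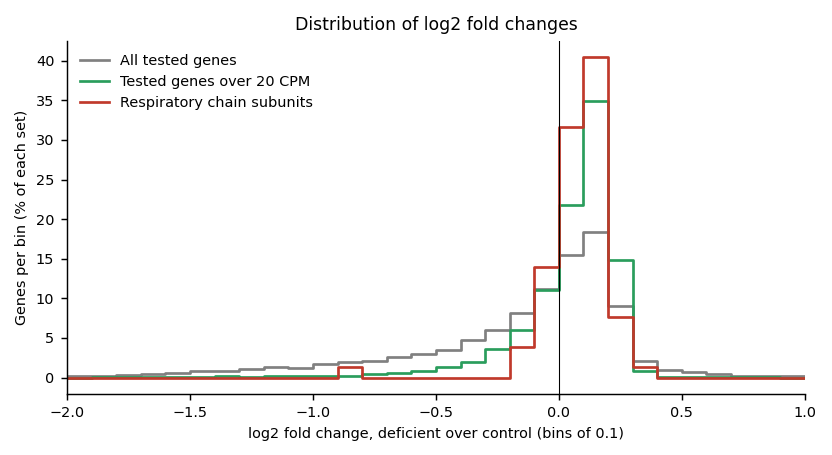
Distribution of log2 fold changes (x axis, deficient over control, bins of 0.1) as a percentage of each set (y axis) for all 13961 tested genes (grey), the 5220 tested genes over 20 CPM (green) and the 79 tested respiratory chain subunits (red). The subunits and the genes over 20 CPM share a median of 0.10. The long lower tail of all genes is thin in the genes over 20 CPM and nearly empty in the subunits, where Ndufb2 at −0.88 stands alone.

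Summed over all 84 members, the level was 4109, 4069 and 4396 CPM (control replicates 1 to 3) against 4402, 4480 and 4608 CPM (deficient replicates 1 to 3). The means were 4191 ± 178 and 4497 ± 104 CPM (SD, n = 3), a ratio of 1.07. All deficient sums lay above all control sums, but control replicate 3 and deficient replicate 1 nearly met. Complex I summed to 1016 ± 33.7 against 1082 ± 25.9 CPM (SD, n = 3), complex IV to 868 ± 50.5 against 944 ± 43.2 CPM (SD, n = 3) and complex V to 1529 ± 61.4 against 1619 ± 22.9 CPM (SD, n = 3). In these 3 complexes the groups overlapped, with control replicate 3 above deficient replicate 1. Complex II summed to 331 ± 9.66 against 362 ± 7.66 CPM (SD, n = 3) and complex III to 447 ± 26.3 against 490 ± 7.93 CPM (SD, n = 3), with no overlap in either.

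The order of the libraries by this sum was the order of other measures too. From lowest to highest, the summed subunits ran control 2, control 1, control 3, deficient 1, deficient 2 and deficient 3. The macrophage list ran in that order as well, with 12095 CPM at its lowest and 15438 CPM at its highest, with all 12 genes above a log2 fold change of 0 and a median of 0.18. The neural crest list ran in exactly the opposite order, with 137 CPM in control replicate 2 and 36.4 CPM in deficient replicate 3, with all 15 tested genes below 0 and 9 called. Total counts per library had the order of the subunits. Erythroid markers, a further list, summed to 33.5 ± 23.5 CPM in controls against 13.3 ± 3.04 CPM in deficient libraries (SD, n = 3). The part of depth and of the mix of cells in the difference between the genotypes was not tested.

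**Figure D2:**
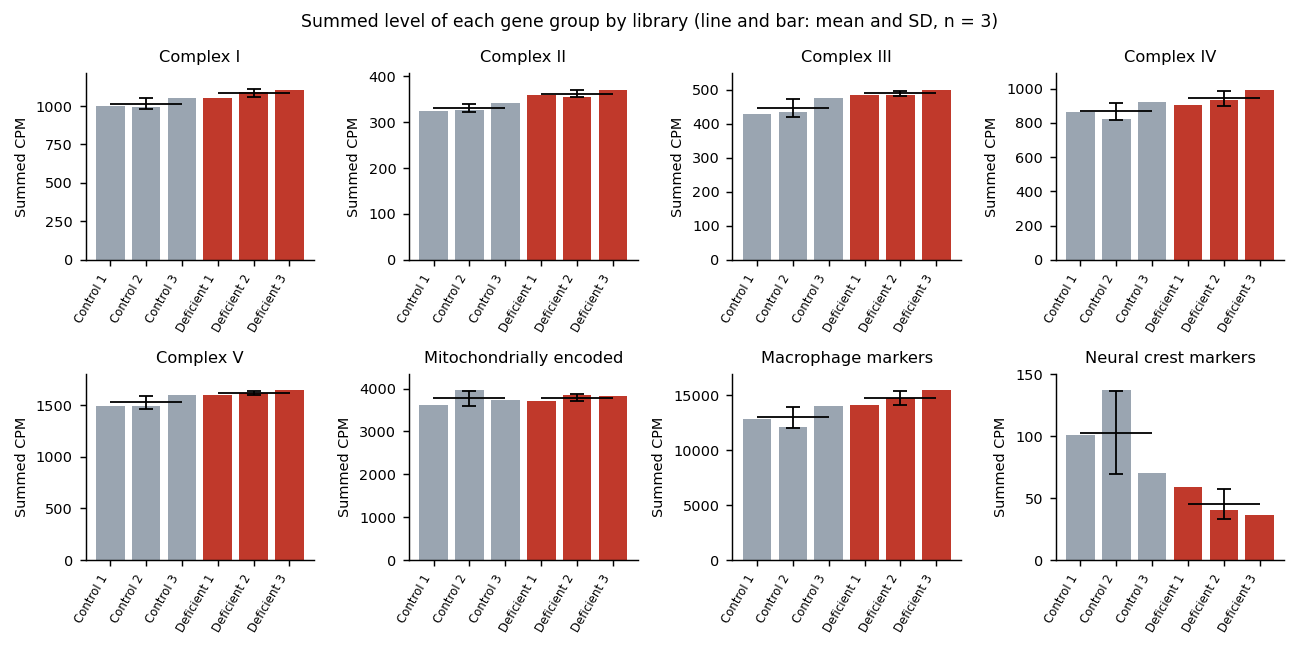
Summed CPM (y axes, from 0) of the subunits of each complex, of the 13 mitochondrially encoded genes, of the 12 macrophage markers and of the 16 neural crest markers in each library (bars; controls grey, deficient red), with the mean and SD of each group (black, n = 3). The macrophage bars are lowest and the neural crest bar highest in control replicate 2 (12095 and 137 CPM), while the bars of each complex differ little between libraries.

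The spread between libraries of a genotype was of the size of the difference between genotypes. Taking for each subunit the log2 CPM less its control mean, the median over the 79 subunits was −0.03, −0.05 and 0.08 in control replicates 1 to 3 and 0.07, 0.10 and 0.12 in deficient replicates 1 to 3. Control replicate 3 thus lay among the deficient libraries. Of the 79 subunits, 30 had their highest level in deficient replicate 3 and 20 in control replicate 3, whereas 34 had their lowest in control replicate 2 and 26 in control replicate 1. Without control replicate 3, 12 of 80 subunits passed an adjusted p of 0.1, all higher, where 1724 of 14430 tested genes, or 11.9%, were higher. Without control replicate 1, without control replicate 2 or without deficient replicate 3, 0 subunits were higher, and so were 0 of all tested genes (edgeR, with 5, 6 and 4 subunits and 2547, 2361 and 2201 of all genes at an unadjusted p under 0.05).

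**Figure D3:**
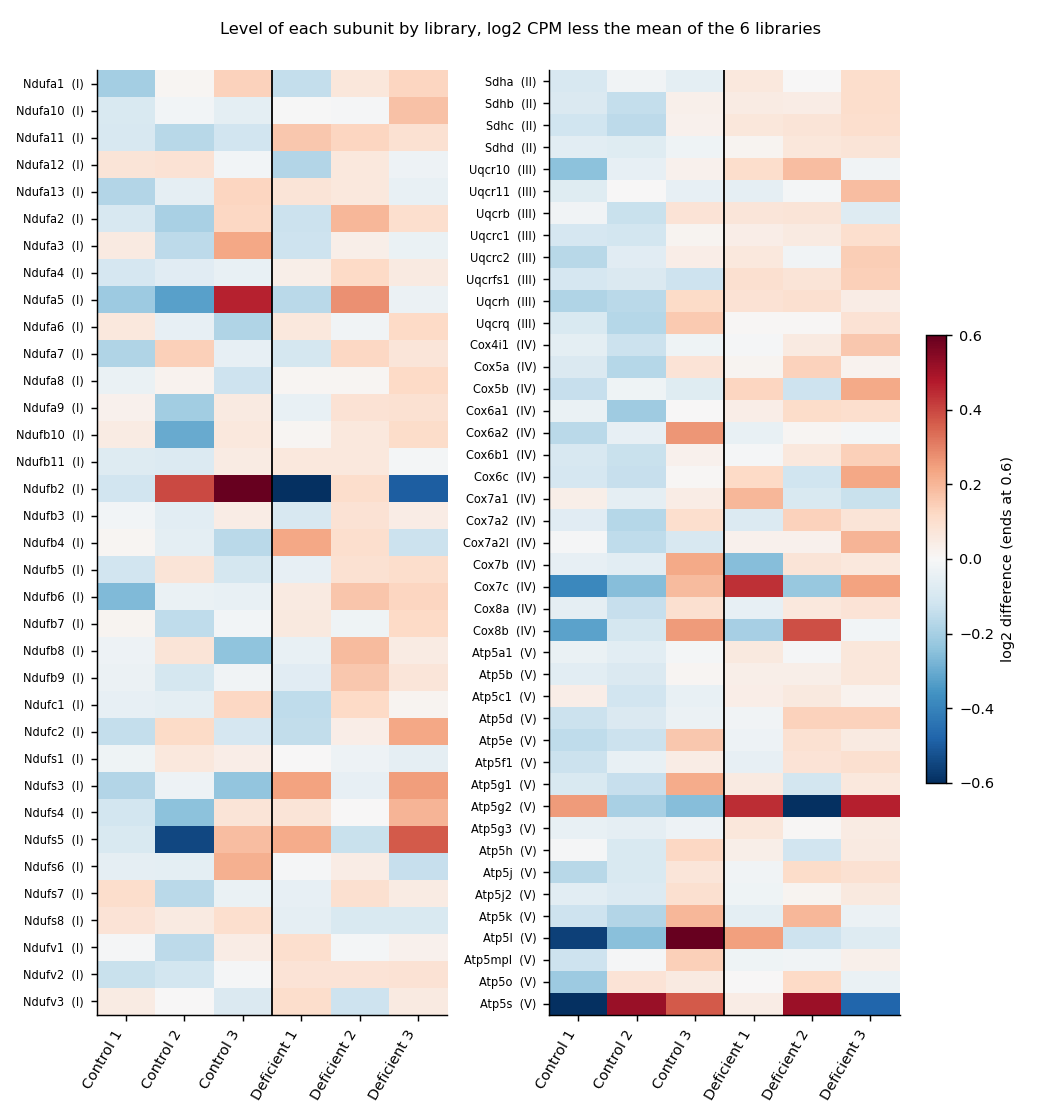
Of the 79 tested subunits, 78 (rows, complex in brackets) in each library (columns, controls left of the line), colored by log2 CPM less the mean of the 6 libraries, with the scale ending at 0.6 in either direction. Pale rows dominate, control replicate 3 is often as red as the deficient libraries, and the strong colors sit in rows of low level such as Ndufb2, Atp5l, Atp5g2 and Atp5s.

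Complex I has a matrix arm, where NADH is oxidized and electrons run along iron-sulfur clusters, and a membrane arm that pumps protons. Its 36 tested nuclear subunits had, as their median, a log2 fold change of 0.10 (0.052 without control replicate 2), and 29 were above 0. Of the 36, 7 are core subunits of the matrix arm, with a median of 0.07, and the other 29 had a median of 0.10. Ndufs3, a core subunit next to the iron-sulfur chain, had the highest value of complex I. It had 29.1, 32.2 and 27.8 CPM in controls against 38.8, 31.8 and 39.1 CPM in deficient libraries, so deficient replicate 2 lay within the control range. Its log2 fold change was 0.31 (SE 0.0999, adjusted p = 0.0966, edgeR with Benjamini-Hochberg adjustment). With each library left out in turn it passed only without deficient replicate 2 (adjusted p = 0.085, edgeR), and over 15 alternatives its adjusted p ran from 0.0178 to 0.315.

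Ndufa11, an accessory subunit of the membrane arm, had 21.8, 20.7 and 21.5 CPM in controls against 26.0, 25.4 and 24.8 CPM in deficient libraries. The groups were clearly apart and each was tight. Its log2 fold change was 0.25 (SE 0.0845, adjusted p = 0.0996, edgeR with Benjamini-Hochberg adjustment), and it passed only without control replicate 3 (adjusted p = 0.0987) when a library was left out, with a range of 0.0738 to 0.281 over the 15 alternatives. Ndufs8 and the other members without a place in the rule for named genes were picked after their values were seen. Ndufs8, which carries iron-sulfur clusters, had 18.8, 18.4 and 19.1 CPM against 17.1, 16.6 and 16.6 CPM, and its log2 fold change of −0.16 did not pass (adjusted p = 0.306, edgeR with Benjamini-Hochberg adjustment).

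Ndufb2, an accessory subunit of the membrane arm, had the lowest log2 fold change of all subunits. It had 2.02, 2.94 and 4.34 CPM in controls against 1.17, 2.38 and 1.52 CPM in deficient libraries. The groups overlapped, and the value of −0.88 (SE 0.37, adjusted p = 0.153, edgeR with Benjamini-Hochberg adjustment) rested on few counts. Without control replicate 3 it was −0.53. Part of its transcript (18.6% of windows of 75 bases) is shared with an overlapping gene. Ndufa2 had the highest level of complex I per exon length, with 66.4 CPM per kb on average. It had 35.3, 33.0 and 41.2 CPM in the controls against 34.5, 43.3 and 40.5 CPM in the deficient libraries. Exon length is here that of all annotated exons of a gene together. It can far exceed the principal transcript, as in Atp5b with 4237 and 1916 bases, so ranks per exon length depend on the annotation. Ndufa4, now assigned to complex IV on biochemical grounds, had 41.8, 42.7 and 43.5 CPM against 45.9, 48.7 and 46.5 CPM, with no overlap and a log2 fold change of 0.14 (SE 0.0675). Its paralogue Ndufa4l2, known as a hypoxia-induced form, was near 0, with 4 to 18 counts per library, and was not tested.

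In complex II all 4 subunits had every deficient library above every control library, although none passed the adjusted p. Among all genes over 20 CPM, as all 4 are, 32.5% had such groups. Sdha, the flavoprotein that oxidizes succinate, had 122, 129 and 125 CPM in controls against 137, 131 and 141 CPM in deficient libraries. Sdhb, the iron-sulfur subunit, had 61.8, 59.4 and 67.0 CPM against 67.8, 67.6 and 70.6 CPM. The membrane anchors behaved alike in this respect. Sdhc had 71.4, 69.5 and 79.0 CPM against 81.2, 81.9 and 83.1 CPM, with a log2 fold change of 0.16 (SE 0.0656, adjusted p = 0.146, edgeR with Benjamini-Hochberg adjustment). Sdhd had 68.9, 68.5 and 70.6 CPM against 72.9, 75.5 and 76.0 CPM, with a log2 fold change of 0.11 (SE 0.0590). Sdhd also had the highest level per exon length of the 4 (58.5 CPM per kb), and the median log2 fold change of complex II was 0.12.

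Complex III moves electrons from quinol to cytochrome c. Its 8 subunits were all above 0, with a median log2 fold change of 0.13 (0.084 without control replicate 1). Uqcrfs1, the Rieske iron-sulfur protein, a catalytic subunit, had the lowest p of all 79 subunits. It had 69.8, 70.6 and 68.7 CPM in controls against 79.9, 79.0 and 82.6 CPM in deficient libraries. The gap between the groups was larger than the spread within either, and the log2 fold change was 0.21 (SE 0.0585, adjusted p = 0.0794, edgeR with Benjamini-Hochberg adjustment). The exact permutation p was 0.1, the smallest that 3 against 3 libraries allow. Uqcrfs1 kept an adjusted p of at most 0.1 in edgeR only when deficient replicate 1 or control replicate 3 was the library left out (0.0942 and 0.0551, with 0.140 to 0.281 otherwise), and over the 15 alternatives its adjusted p ran from 0.0277 to 0.281. It was the subunit that passed under DESeq2 and limma-voom, where no other did.

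The core proteins Uqcrc1 and Uqcrc2, which frame the matrix side of complex III, had log2 fold changes of 0.13 each. Uqcrc1 had 108, 107 and 117 CPM against 119, 120 and 124 CPM, without overlap. The small subunits Uqcr10 and Uqcrb marked the ends of the remaining range. Uqcr10 had the highest level per exon length of complex III (56.3 CPM per kb), with 27.6, 31.6 and 33.3 CPM in controls against 35.2, 37.2 and 32.3 CPM in deficient libraries. Uqcrb had 23.6, 21.8 and 25.3 CPM against 25.2, 25.2 and 22.6 CPM, and its log2 fold change of 0.04 was the lowest of complex III.

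**Figure D4:**
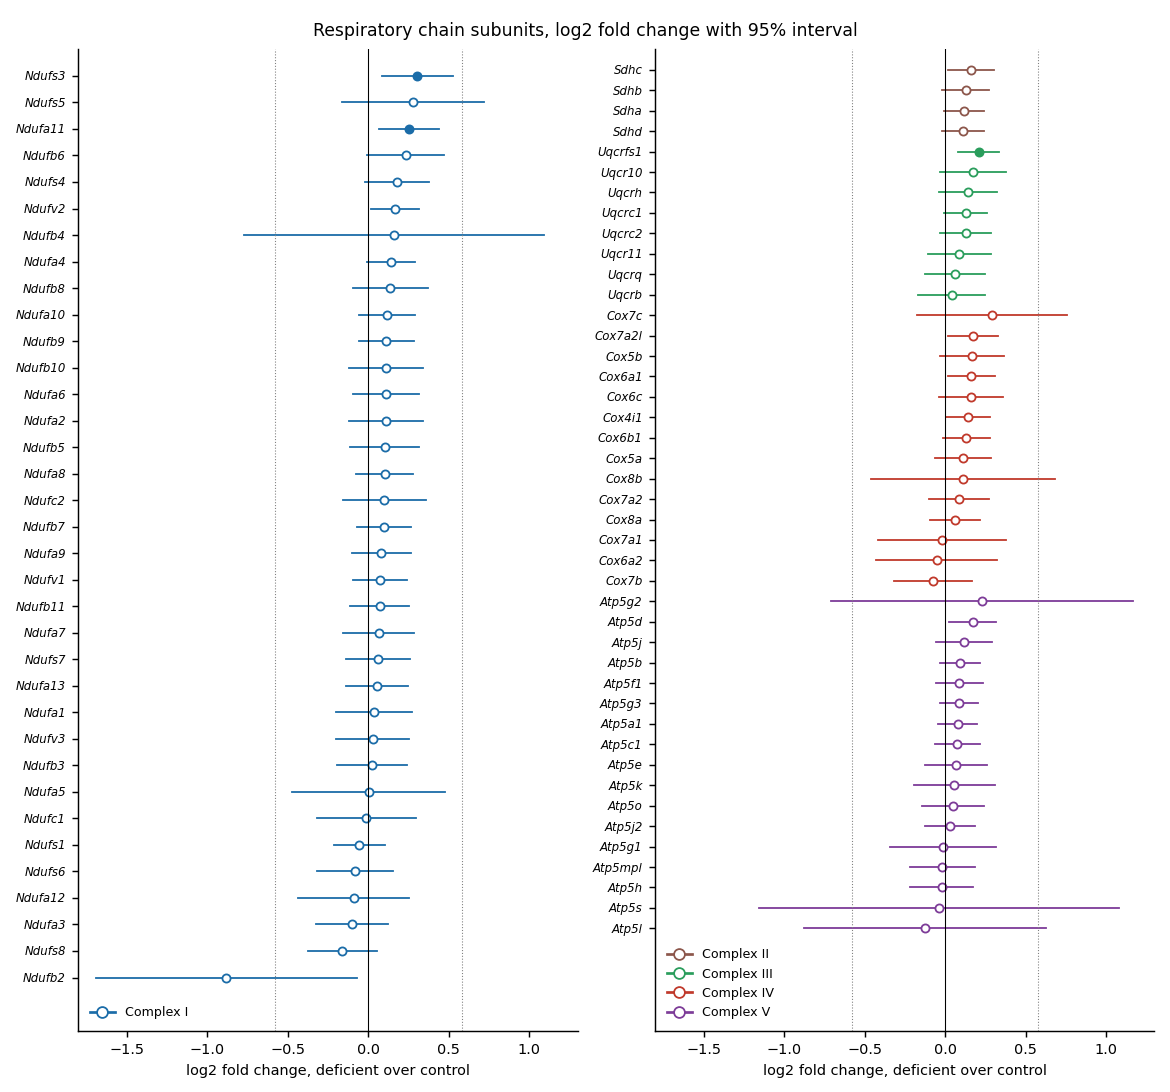
Log2 fold change (x axis, deficient over control) of 78 of the 79 tested subunits with its 95% interval, colored by complex; filled points have an adjusted p of at most 0.1 and dotted lines mark 0.58 in either direction. Most points lie just right of 0 with intervals inside the dotted lines, and the wide intervals belong to subunits of few counts such as Atp5s, Atp5g2 and Ndufb4.

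In complex IV, which reduces oxygen, several subunits exist as a widely expressed form and a form of certain tissues. The widely expressed forms made up nearly all of the counts. Cox8a had the highest level of any subunit per exon length, with 179.9 CPM per kb, and had 107, 101 and 119 CPM in the controls against 107, 116 and 118 CPM in the deficient libraries. Cox6b1, next in level (154 CPM per kb), had 102, 99.4 and 111 CPM against 108, 114 and 121 CPM. In both the groups overlapped. These ranks depend on the length used. Cox4i1 has 1550 exon bases and a principal transcript of 745 bases, where Cox8a has 619 and 550. Cox4i1 had 193, 184 and 198 CPM in controls against 200, 208 and 225 CPM in deficient libraries. Cox6a1 had 93.5, 82.9 and 96.2 CPM against 98.9, 104 and 103 CPM. In these the groups did not overlap, with log2 fold changes of 0.14 (SE 0.0625) and 0.16 (SE 0.0675) that did not pass the adjusted p.

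Among the COX7 forms, Cox7a2l, known for its part in joining complexes III and IV into supercomplexes, had 77.1, 69.8 and 72.6 CPM in controls against 79.0, 79.0 and 89.2 CPM in deficient libraries (log2 fold change 0.17, SE 0.0712). Cox7a2 had 62.7, 58.3 and 70.6 CPM against 62.2, 72.4 and 69.4 CPM, with overlap. Cox7b had the lowest log2 fold change of the complex, −0.07, with 45.1, 44.6 and 54.5 CPM against 39.1, 49.2 and 48.8 CPM. No direction can be read from Cox7b, whose groups overlapped. The median log2 fold change of the 14 tested subunits of complex IV was 0.12, and 11 were above 0.

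The muscle forms Cox6a2, Cox7a1 and Cox8b were present at low level, with no direction in common. Cox6a2 had 6.90, 7.47 and 9.33 CPM in controls against 7.50, 7.80 and 7.67 CPM in deficient libraries. Cox7a1 had 6.68, 6.27 and 6.71 CPM against 7.50, 6.10 and 5.92 CPM. Cox8b had 3.08, 3.60 and 4.67 CPM against 3.36, 5.12 and 3.84 CPM. All 3 overlapped between the groups, with a median log2 fold change of −0.02. Per exon length they stood at 11.4, 12.2 and 10.9 CPM per kb, far under Cox6a1 at 137, Cox7a2 at 69.8 and Cox8a at 179.9 CPM per kb. The remaining forms were not tested. Cox4i2, the lung form, had 2 to 5 counts per library and Cox6b2, a testis form, had 1 to 8. Cox7b2 had a single count in 1 of the 6 libraries and Cox8c had 0 in all.

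Complex V consists of the F1 head, which makes ATP, and a membrane part with a ring of c subunits. Its 17 subunits had, as their median, a log2 fold change of 0.07, and 12 were above 0. The median was 0.014 without control replicate 1 and 0.119 without control replicate 3. Atp5b, the catalytic beta subunit of F1, was the most abundant of all members in CPM and the first of complex V per exon length (119 CPM per kb). It had 482, 474 and 507 CPM in controls against 515, 515 and 528 CPM in deficient libraries. The groups did not overlap, yet the difference was small, with a log2 fold change of 0.09 (SE 0.0571, adjusted p = 0.329, edgeR with Benjamini-Hochberg adjustment). Of the 5 F1 subunits, all lay above 0, with a median of 0.08, and Atp5d, the delta subunit of the central stalk, had the highest, 0.17 (SE 0.0663).

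Subunit c is encoded by 3 genes that differ in their mitochondrial targeting sequence and code for the same mature protein. The coding sequences were compared over their last 225 bases, which translate to the same 75 residues in all 3 genes. Capitals mark the 57 positions at which the genes are not all the same. Atp5g1 differed from Atp5g3 at 45 of them and Atp5g2 at 48. No window of 75 bases of the principal transcript of Atp5g3 is repeated in another gene. Atp5g2 has 2 pseudogene copies that between them repeat all of its windows of 75 bases, so its counts are uncertain. The sequences come from GENCODE M21 transcripts (GRCm38), all on the minus strand, of genes at chr11:96068852-96075670, chr15:102662864-102672352 and chr2:73908447-73911326.
Atp5g1: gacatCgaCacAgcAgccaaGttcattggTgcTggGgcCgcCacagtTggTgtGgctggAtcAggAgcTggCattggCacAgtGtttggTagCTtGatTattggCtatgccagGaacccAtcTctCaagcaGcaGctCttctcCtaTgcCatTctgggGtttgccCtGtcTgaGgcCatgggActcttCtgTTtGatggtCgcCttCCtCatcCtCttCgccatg
Atp5g2: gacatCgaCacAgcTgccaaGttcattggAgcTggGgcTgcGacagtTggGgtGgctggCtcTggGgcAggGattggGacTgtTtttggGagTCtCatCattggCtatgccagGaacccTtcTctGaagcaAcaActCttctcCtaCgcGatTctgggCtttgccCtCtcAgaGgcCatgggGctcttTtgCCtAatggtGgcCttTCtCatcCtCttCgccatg
Atp5g3: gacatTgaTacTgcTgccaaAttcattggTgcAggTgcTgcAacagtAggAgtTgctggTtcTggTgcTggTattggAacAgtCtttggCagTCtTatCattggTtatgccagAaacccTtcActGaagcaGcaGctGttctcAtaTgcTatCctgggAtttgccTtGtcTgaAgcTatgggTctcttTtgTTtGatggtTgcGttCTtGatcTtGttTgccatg

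Atp5g3 carried most of the subunit c counts, with 107, 106 and 107 CPM in controls against 115, 111 and 114 CPM in deficient libraries (log2 fold change 0.09, SE 0.0548). Its groups did not overlap. Atp5g1 had 9.66, 9.34 and 12.0 CPM against 10.7, 9.51 and 10.8 CPM, and Atp5g2 had 1.70, 1.20 and 1.15 CPM against 1.95, 0.792 and 1.99 CPM. In both the groups overlapped, with log2 fold changes of −0.01 (SE 0.151) and 0.23 (SE 0.429). Per exon length Atp5g3 stood at 50.4, Atp5g1 at 2.10 and Atp5g2 at 0.874 CPM per kb. The value of Atp5g1 rests on 4912 exon bases and on its own row alone. With the counts of its pseudogene copies added it had 31.5 to 40.4 CPM, so its level is uncertain. Atp5l, subunit g of the membrane part, had the lowest log2 fold change of complex V, −0.12 (SE 0.344), with 2.12, 2.67 and 5.57 CPM against 3.83, 2.93 and 3.03 CPM.

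The low levels of several abundant subunits went with near-identical copies in the genome. Respiratory chain genes are known for processed pseudogenes, copies made from their mRNA. Each member's principal transcript was searched in windows of 75 bases against all other annotated transcripts, and 24 of the 84 members had at least 1 window repeated at another locus, 23 of them in a pseudogene. Members with at least 20% of windows elsewhere, the tissue forms left out, had a median level of 8.99 CPM (9 members), and the other 67 had 44.9 CPM. How the counting treated reads that map to several places is not stated. The authors' counts could have been split between member and copy, so these levels are uncertain.

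Cox7c, a small subunit of complex IV, shows this most plainly. Its whole coding sequence of 189 bases occurs without a difference in the processed pseudogene Gm12338 (chr11:75599763-75599954, minus strand, GRCm38), while Cox7c itself lies at chr13:86044816-86046904 on the minus strand. A read from within the stretch below cannot be placed in one or the other by its sequence.
Cox7c and Gm12338: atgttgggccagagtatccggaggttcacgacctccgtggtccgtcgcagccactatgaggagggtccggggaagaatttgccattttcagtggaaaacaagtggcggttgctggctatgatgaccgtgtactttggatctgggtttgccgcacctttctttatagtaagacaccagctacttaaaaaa
Cox7c had 737 counts in all 6 libraries together, and its 2 copies had 3735, or 83.5% of the total. Gm12338 had 462, 354 and 556 counts in the controls and 511, 822 and 954 in the deficient libraries. The row of Cox7c alone had 6.68, 7.34 and 10.1 CPM against 12.0, 7.50 and 10.4 CPM and the highest log2 fold change of complex IV, 0.29 (SE 0.213). With the counts of the copies added to it, a choice made after the values were seen, the log2 fold change was −0.004 (SE 0.0658).

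Ndufs5, an accessory subunit of complex I, differs from its copy BC002163 (chr16:42955631-42955949, plus strand) at 2 of 318 coding bases. Bases 61 to 120 of the coding sequence are shown, with the differing bases in capitals.
Ndufs5 (chr4:123712710-123718202, minus strand): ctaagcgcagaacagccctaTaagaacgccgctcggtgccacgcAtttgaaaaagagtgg
BC002163: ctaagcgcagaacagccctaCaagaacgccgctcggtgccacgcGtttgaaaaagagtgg
The copy held 728 counts and Ndufs5 held 819. Its log2 fold change was 0.28 (SE 0.201) for its own row and 0.03 (SE 0.163) with the copy added. The other high value of complex I moved in the same way. Ndufs3 shares 27.1% of its windows with 1 copy, which held 634 counts beside its own 2699, and its log2 fold change went from 0.31 to 0.15 (adjusted p = 0.195, edgeR with Benjamini-Hochberg adjustment) with the copy added.

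In complex V, copies held 90.8% of the joint counts for Atp5l and 71.3% for Atp5g1, whose coding sequence matches the copy Gm10039 over 408 bases with 1 difference. With copies added, Atp5l had a log2 fold change of −0.03 (SE 0.0863) and Atp5g1 of 0.05 (SE 0.0971). Ndufa12 (52.4%) and Atp5h (51.8%) complete the 5 members whose copies held more counts than the gene. With copies added, Ndufa12 went from −0.09 to −0.065 (SE 0.115), whereas Atp5h moved away from 0, from −0.02 to 0.12 (SE 0.0837). Adding the 32 pseudogene rows to their 20 members left 1 subunit with an adjusted p of at most 0.1, Uqcrfs1, and left the median of the 79 subunits at 0.10.

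**Figure D5:**
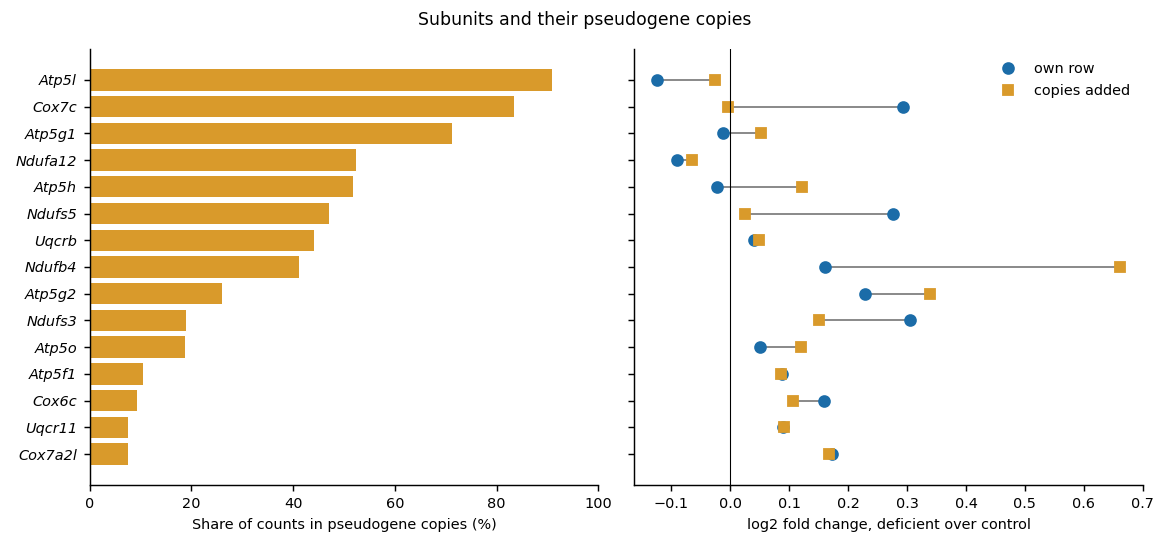
For the members with at least 5% of their joint counts in pseudogene copies, the share of counts in the copies (left, percent) and the log2 fold change (right, deficient over control) from the member's own row (blue circles) and with copies added (orange squares). The values of Cox7c, Ndufs5 and Ndufs3 come nearer to 0 once the copies are added. Others, such as Atp5h, Atp5o and Atp5g2, move away from 0, and Ndufb4, with 67 counts of its own, goes from 0.16 to 0.66.

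Promoters of these genes are known for motifs of NRF1, of ETS factors such as GABP and of YY1. RefSeq promoters (250 bases before to 50 after the start, GRCm38.p6) matched 68 of the 84 members by symbol or synonym. Each motif was searched on both strands, and matches of the ETS and YY1 letters can overlap. The NRF1 motif, whose 10 letters stand in capitals in the NRF1 matches, was found in 5 of the 68 (7.35%), in 1.07% of all 27025 genes with a promoter and in 2.32% of the 10094 of these that were tested. The ETS motif CCGGAAG was found in 16 (23.5%, with 9.93% of all genes and 19.7% of tested genes). The YY1 motif AAGATGGC was found in 10 (14.7%, with 3.19% of all genes and 5.25% of tested genes). Tested members with any of the 3 motifs had, as their median, a log2 fold change of 0.09 (28 members), and those without had 0.10 (38 members), so the motifs did not separate the fold changes.

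The NRF1 matches are shown with up to 10 bases on either side, motif in capitals, and include that of Ndufa11, 1 of the 3 subunits that passed by adjusted p.
Ndufa11 (chr17:56717692-56717721, plus strand): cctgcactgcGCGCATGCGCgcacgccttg
Uqcrc1 (chr9:108936668-108936697, plus strand): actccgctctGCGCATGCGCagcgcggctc
Cox6a1 (chr5:115349101-115349130, minus strand): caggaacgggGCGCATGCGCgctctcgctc
Atp5g2 (chr15:102671070-102671099, minus strand): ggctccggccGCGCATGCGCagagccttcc
Atp5k (chr5:108434430-108434459, minus strand): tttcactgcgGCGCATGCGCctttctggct
Of the 10 YY1 matches, 8 began between 23 and 39 bases after the start and read in the direction of the gene, 7 of them in complex I genes. The 4 of these that lie closest to the start in complex I are given in the same way.
Ndufa3 (chr7:3617385-3617412, plus strand): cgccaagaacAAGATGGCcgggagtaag
Ndufc1 (chr3:51408916-51408943, minus strand): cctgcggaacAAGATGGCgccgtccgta
Ndufs7 (chr10:80249463-80249490, plus strand): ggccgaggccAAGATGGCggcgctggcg
Ndufa9 (chr6:126849098-126849125, minus strand): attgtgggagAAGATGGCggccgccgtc
A match is a run of letters and was not tested for binding. The YY1 letters contain ATG, and whether the matches after the start lie at the codon where translation begins was not tested.

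The genes that build and serve the chain were read from lists, beside the median of −0.02 and the 4.18% higher and 7.75% lower of all tested genes. The assembly factors had medians of −0.02 for complex I (17 tested), −0.31 for complex II (3 tested), 0.02 for complex III (5 tested), −0.05 for complex IV (22 tested) and 0.14 for complex V (4 tested). None of these genes had an adjusted p of at most 0.1. The nearest was Coa5, an assembly factor of complex IV, with 187, 190 and 199 CPM against 208, 213 and 229 CPM (log2 fold change 0.18, adjusted p = 0.101, edgeR with Benjamini-Hochberg adjustment). Among complex I factors the lowest p was that of Ndufaf8 (0.26, SE 0.160), which did not pass.

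The electron carriers and the enzymes that feed them (17 tested) had, as their median, a log2 fold change of 0.03, with 1 higher and 1 lower. Gpd2, the mitochondrial glycerol-3-phosphate dehydrogenase, rose from 64.3, 67.5 and 69.5 CPM in the controls to 72.7, 79.4 and 80.7 CPM (0.21, adjusted p = 0.0933, edgeR with Benjamini-Hochberg adjustment). Etfb, which passes electrons from fatty acid oxidation to the chain, fell from 3.18, 4.14 and 4.01 CPM to 2.19, 2.44 and 1.75 CPM and was the one called gene among these mitochondrial lists (−0.83, adjusted p = 0.0951, edgeR with Benjamini-Hochberg adjustment). Cycs, cytochrome c, had 6.26, 5.34 and 6.55 CPM against 9.06, 5.91 and 9.09 CPM and did not pass. The TCA cycle genes (18 tested) had a median of −0.001, and 1 of them, Idh2, fell, from 28.0 ± 3.74 to 21.8 ± 0.978 CPM (SD, n = 3; −0.35, adjusted p = 0.089, edgeR). Gpd2, Etfb and Idh2 did not pass without control replicate 1, where 0 of all tested genes were higher and 0 lower (edgeR). Gpd2 also did not pass without control replicate 2 or without deficient replicate 3, where 0 genes were higher.

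Regulators of mitochondrial biogenesis (19 tested) had, as their median, a log2 fold change of −0.10, with 1 higher and 2 lower. Gabpb2, a subunit of the ETS factor GABP, fell from 17.6, 17.3 and 17.2 CPM to 13.7, 13.9 and 12.1 CPM (−0.40, SE 0.112, adjusted p = 0.081, edgeR). Lrpprc, which stabilizes mitochondrial mRNAs, fell from 25.3, 24.7 and 25.3 CPM to 22.3, 20.6 and 17.9 CPM (−0.31, SE 0.101, adjusted p = 0.0949, edgeR). In the other direction, Esrra, a nuclear receptor that activates respiratory genes, rose from 50.4, 41.8 and 52.0 CPM to 54.7, 58.1 and 60.3 CPM (0.26, SE 0.0865, adjusted p = 0.0994, edgeR). These changes depended on the libraries used. Gabpb2, Lrpprc and Esrra did not pass once control replicate 1 was left out, where 0 of all tested genes passed (edgeR). Esrra also missed without control replicate 2 or without deficient replicate 3, where 0 genes were higher. Ppargc1a, the coactivator PGC-1alpha, had too few counts to be tested.

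The mitochondrially encoded subunits of complexes I, III, IV and V had a lower median log2 fold change than the nuclear ones, a difference that was not tested. The 12 tested genes had, as their median, a log2 fold change of −0.05, with 5 above 0 and a range of −0.575 to 0.481. Their median level was 153 CPM, and all tested genes over 20 CPM had a median log2 fold change of 0.10. Their sum was 3771 ± 168 CPM in controls against 3792 ± 79.4 CPM in deficient libraries (SD, n = 3). The ratio of this sum to that of the nuclear-encoded members was 0.883, 0.972 and 0.848 in control replicates 1 to 3 and 0.841, 0.859 and 0.831 in deficient replicates 1 to 3, so the groups overlapped. The subunit mt-Nd5 of complex I fell from 324, 361 and 326 CPM to 291, 295 and 291 CPM (−0.20, SE 0.0604, adjusted p = 0.0861, edgeR with Benjamini-Hochberg adjustment). Without control replicate 1 mt-Nd5 did not pass, as 0 of all tested genes were lower in that fit. The libraries were made from poly(A) RNA, and mitochondrial mRNAs differ in their tails, so the ratio is set between libraries only and does not give the relative amounts of nuclear and mitochondrial transcripts.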

How the data were processed

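RNA of GFP-positive cells from 3 control and 3 BAF155- and BAF170-deficient E11.25 samples was sequenced from strand-specific poly(A) libraries. The authors used FastQC 0.11.7 and cutadapt 1.18, trimmed adapters from the reads, aligned them to GRCm38 with STAR and deposited raw counts per gene from featureCounts. The annotation release, the strand setting and the treatment of reads with several positions are not given in the sources used here. Identifiers were joined without their version to GENCODE M21, which named 46488 of 46983 rows. The 495 unnamed rows held 0.0558 to 0.0706% of counts.

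Totals ran from 8191219 to 19808620 counts. Counts were fitted in R 4.3.3 with edgeR 4.0.16 (TMM, filterByExpr with a minimum count of 10, robust quasi-likelihood, Benjamini-Hochberg adjustment over 13961 genes). The common biological coefficient of variation was 12.8%. The SE is the log2 fold change divided by the root of F. On simulated counts for 13961 genes, 93.5% of 200 genes changed by 1.5 (log2) were recovered, with 18 false calls. The changed genes were drawn from those of higher count, and changes as small as those of the subunits were not simulated. Alternatives were DESeq2 1.42.0, limma-voom (limma 3.58.1, the tool of the authors), other scalings and filters, a replicate block, length-corrected offsets, each library left out, and pseudogene copies added, the last chosen after seeing the data.

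The rule for named genes took, per complex, members past all thresholds, up to 3 with the lowest p at an adjusted p of at most 0.1, those with the highest and lowest log2 fold change, the one highest per exon length, and tissue-type paralogues. From the pathway lists, genes were named out of the up to 3 with the lowest p in each list. Ppargc1a, which was not tested, was named for its known role. Members, lists and roles were chosen with earlier results of these data known. The individual values of 1 subunit are not reported here; it is kept in counts, sums and medians.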

Additional observations from a re-analysis of the deposited data

How the results depend on the processing

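The number of subunits higher at an adjusted p of at most 0.1, 3 in edgeR, was 1 with DESeq2, limma-voom, upper-quartile factors, library totals, length-corrected offsets or copies added, 0 with a filter at a mean of 2 CPM, and 0 to 12 with a library left out. Same-numbered libraries deviated from their group means with correlations of 0.0284, −0.0335 and 0.293, and only control replicate 3 correlated best with its own number. The labels give only the number, and these correlations cannot show whether same-numbered libraries belong together. With a replicate block 9 subunits were higher, 1 was lower and 1 (Ndufb2, −0.90, adjusted p = 0.0779 in edgeR) was called. Over all genes 1608 were then higher, 2057 lower and 1164 called, in place of 583, 1082 and 689. Genes called ranged from 0 (without control replicate 1, with 2547 at an unadjusted p under 0.05) to 1245 (without control replicate 3), and were 1015 with no filter on low counts. Genes higher were 174 with the filter at 2 CPM, 1997 with length-corrected offsets, 75 with library totals, 1369 with no filter and 350 with upper-quartile factors, and genes lower were 668 with the filter at 2 CPM and 1727 with no filter. The median log2 fold change with library totals was 0.16 for all subunits, 0.163 for complex I, 0.186 for complex II and 0.189 for complex III, where all genes moved to 0.04. With no filter it was 0.148 for complex I and 0.172 for complex II, with length-corrected offsets 0.193 for complex II, and with a library left out 0.052 to 0.116 for complex I. The sign turned in some named genes. Atp5g1 had 0.005 (DESeq2), 0.052 (copies added), 0.133 (length-corrected offsets), 0.044 (library totals) and 0.035 (no filter). Length-corrected offsets gave 0.048 for Atp5l, −0.006 for Cox8a, −0.022 for Uqcrb and 0.064 for Smarcc2. Library totals gave 0.002 for Cox6a2 and 0.038 for Cox7a1, no filter 0.027 for Cox7a1, and copies added −0.004 for Cox7c. With a library left out, values ran from −0.075 to 0.119 (Atp5g1), −0.002 to 0.552 (Atp5g2), −0.375 to 0.446 (Atp5l), −0.141 to 0.095 (Cox6a2), −0.13 to 0.043 (Cox7a1), −0.127 to 0.032 (Cox7b), −0.075 to 0.307 (Cox8b) and −0.009 to 0.098 (Uqcrb). Where no construction of an alternative shows it, the cause was not tested.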
